A study of Homo sapiens with 6 samples.

Results

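The microRNA genes MIR10A and MIR10B lie inside HOX gene clusters, and this account describes their mature products, miR-10a and miR-10b, in spheroid and parental MDA-MB-231 cells. Every listed sequence whose stem-loop name was mir-10a or mir-10b was taken, on both arms of the hairpin, without regard to its level. This gave 4 of the 437 mature sequences listed, namely miR-10a-5p, miR-10a-3p, miR-10b-5p and miR-10b-3p. MDA-MB-231 is an estrogen-independent human breast adenocarcinoma line that lacks the estrogen, progesterone and HER2 receptors. Spheroid cells of this line (3 samples) were grown in suspension without serum, where they form aggregates. Parental cells (3 samples) were the same line kept as an adherent monolayer in medium with serum, so attachment and serum differ together between the groups. Small RNA libraries were read by Illumina sequencing, and the deposited data are 1 table of read counts per condition with 0 columns per sample. The labels name 1 table for all 3 samples of a condition, while the study's sample sheet lists it beside the first of them only, so each table may hold a single library rather than 3. The study's library summary likewise gives 1 index for each condition. The files which the sample sheet lists for spheroid samples 2 and 3 share 1 index and differ in lane, so they may not be separate cultures. The spread between cultures could therefore not be measured, and each test below compares the reads of the tables rather than the conditions.

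MicroRNAs are cut from a hairpin precursor, and bases 2 to 8 of the mature strand, the seed, pair with target messenger RNAs. The miR-10 genes have stayed within the HOX clusters since early in animal evolution, and HOX transcripts are among their known targets, such as HOXD10 for miR-10b. In breast cancer cells miR-10b is known as a target of the transcription factor TWIST1 and for a part in invasion and metastasis, while miR-10a differs from it by a single base.

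The mature sequences of both genes are shown because the comparison of miR-10a with miR-10b rests on telling them apart. They are written 5′ to 3′ with the seed in capitals. They are the sequences by which the deposited tables list these miRNAs.
miR-10a-5p: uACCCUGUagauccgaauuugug
miR-10b-5p: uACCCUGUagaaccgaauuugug
miR-10a-3p: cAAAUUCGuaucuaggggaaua
miR-10b-3p: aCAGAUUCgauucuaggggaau

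The 5p strands share 22 of 23 bases. The substitution is U12A, with the miR-10a-5p base first, the position counted from 1 at the 5′ end, and the miR-10b-5p base last. It lies outside the seed, so both 5p strands carry ACCCUGU, and no other sequence of the tables does. The 3p strands have different seeds, AAAUUCG in miR-10a-3p and CAGAUUC in miR-10b-3p, each held by 1 sequence of the tables, and 18 of 23 aligned positions are identical between them (78.3%).

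The relatives of the miR-10 gene family are shown for their seeds, which set them apart from miR-10a and miR-10b, and are likewise those of the deposited tables.
miR-99a-5p: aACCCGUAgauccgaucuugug
miR-99b-5p: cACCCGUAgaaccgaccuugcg
miR-100-5p: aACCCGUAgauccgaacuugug
miR-125a-5p: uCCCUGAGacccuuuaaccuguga
miR-125b-5p: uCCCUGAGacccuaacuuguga

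The miR-99 and miR-100 strands share the seed ACCCGUA and the miR-125 strands share CCCUGAG. Aligned with miR-100-5p, miR-10a-5p was identical at 20 of 23 positions (87.0%) and miR-10b-5p at 19 of 23. The miR-125 strands were less alike, with miR-125a-5p identical to either 5p strand at 17 of 26 positions (65.4%).

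The hairpins are shown with both mature arms in capitals, from RefSeq (GRCh38.p14). Each is 110 nucleotides long.
mir-10a: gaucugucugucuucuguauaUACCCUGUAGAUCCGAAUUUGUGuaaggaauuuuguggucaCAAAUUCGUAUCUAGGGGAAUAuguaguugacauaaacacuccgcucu
mir-10b: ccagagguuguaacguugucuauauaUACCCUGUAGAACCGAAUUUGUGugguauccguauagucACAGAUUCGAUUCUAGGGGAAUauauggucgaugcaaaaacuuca

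Over the whole hairpins, mature arms included, 80 of 116 aligned positions were identical (69.0%). Folded with RNAfold, mir-10a had a minimum free energy of -34 kcal/mol with 20 of the 23 bases of its 5p arm paired, 18 of them to the 3p arm. The mir-10b hairpin had -42.9 kcal/mol with 20 of 23 paired, 19 of them to the 3p arm.

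On GRCh37, the mir-10a hairpin lies at chr17:46657200-46657309 on the minus strand, with the 5p arm at 46657266 to 46657288 and the 3p arm at 46657226 to 46657247. It is intronic in all 6 spanning transcripts of HOXB3 and also in an intron of HOXB-AS3 on the opposite strand. A long noncoding transcript on its own strand, ENSG00000257178, has an exon over the hairpin. The nearest gene downstream is HOXB4, 1.49 kb away. The mir-10b hairpin lies at chr2:177015031-177015140 on the plus strand, with the 5p arm at 177015057 to 177015079 and the 3p arm at 177015096 to 177015117, in an intron of HOXD3. The nearest gene downstream is HOXD4, at 1.14 kb, so each hairpin stands upstream of a group 4 HOX gene within a group 3 HOX gene.

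**Figure D1:**
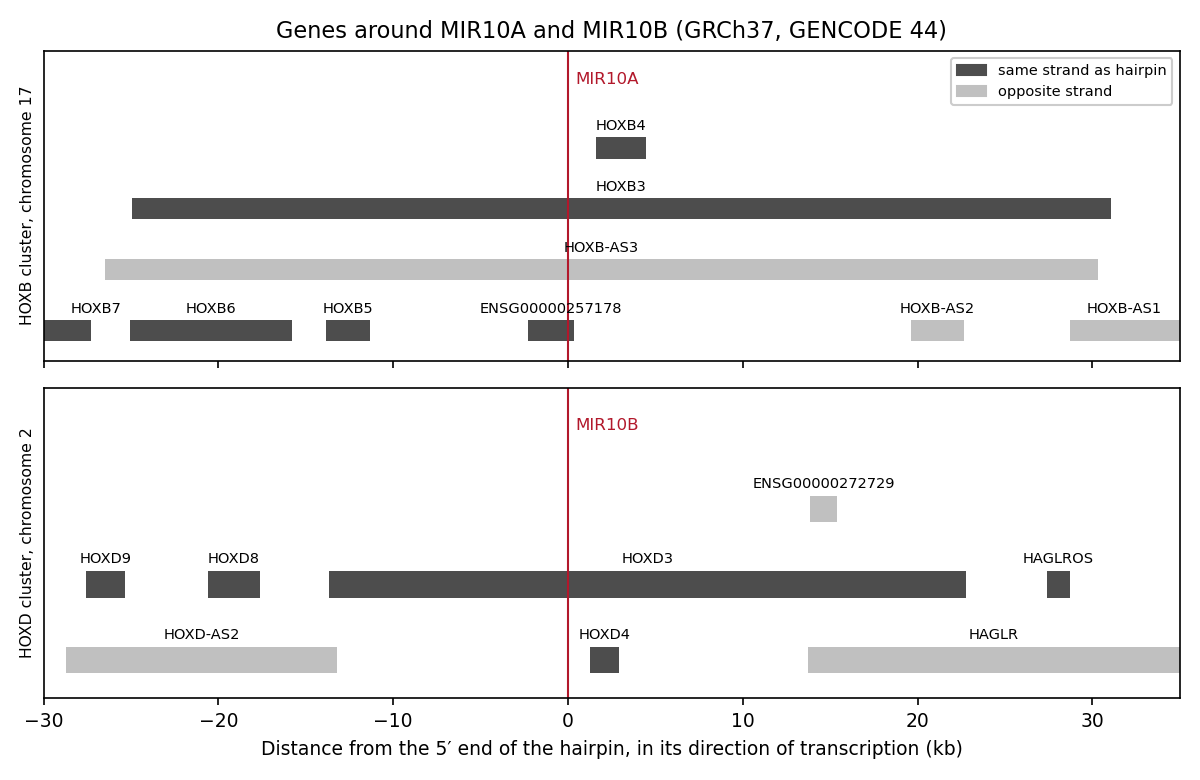
Genes of GENCODE 44 around MIR10A in the HOXB cluster (upper panel) and MIR10B in the HOXD cluster (lower panel), by distance from the 5′ end of the hairpin in its direction of transcription (kb), with dark bars on the strand of the hairpin and pale bars on the opposite strand. Both hairpins (red lines) lie inside a group 3 HOX gene with HOXB4 or HOXD4 next downstream, 1.49 and 1.14 kb from the hairpin.

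The tables hold 1553014 reads for spheroid and 539798 reads for parental cells, a ratio of 2.88. Of these, 436 sequences had a read in either table, 355 in both, 69 in spheroid only and 12 in parental only, so depth limits the low end. A sequence with 0 reads could still be present at up to 3 reads, which is 1.93 reads per 1000000 (rpm) in the spheroid table and 5.56 rpm in the parental table. A list drawn up as abundant in this line held both arms of mir-21, mir-22, mir-31, mir-100, mir-221 and mir-222. It summed to 231145 rpm in spheroid and 263951 rpm in parental cells, most of it miR-21-5p (173118 and 201714 rpm). Of its 12 sequences 3 were lower in spheroid cells at an adjusted p under 0.05 in Kal's Z-test and a fold over 2. Over all sequences tested this share was 8.94%. The 3 were miR-222-5p (fold 0.409), miR-31-3p and miR-100-3p, each from the less abundant arm of its hairpin. Sequences known to be low in this line (the miR-200 family and miR-203a) summed to 122 and 81.5 rpm in spheroid and parental cells. All intervals below are 95% intervals. Those of odds ratios are conditional exact intervals of Fisher's exact test, and the others are exact binomial (Clopper-Pearson) intervals. Both kinds cover counting error only, since there are no columns per sample. The libraries carried no stated molecular identifiers, so copies of 1 molecule cannot be told apart and the intervals may be too narrow.

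Both 5p strands were among the 3 most abundant sequences of either table. Together they made up 26.1% of the spheroid reads and 20.5% of the parental reads, and the sum of all 4 sequences was 5.66 percentage points larger in spheroid cells. The gene from the HOXB cluster carried this difference, while the product of the HOXD cluster gene took nearly equal shares. Since shares of a table sum to 100%, the remaining sequences took 73.9% in spheroid against 79.5% in parental cells, and their summed fold was 0.929.

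miR-10a-5p, the guide strand of MIR10A, had 277306 reads in the spheroid table and 65206 reads in the parental table. This was 178560 rpm (177958 to 179163) in spheroid and 120797 rpm (119929 to 121669) in parental cells, or 17.9% and 12.1% of the reads. It ranked first in the spheroid table and second, after miR-21-5p, in the parental table. The intervals did not overlap, and the fold was 1.48 (1.47 to 1.49), 0.56 on the log2 scale, which is under the 2-fold threshold. Its share was 5.78 percentage points larger in spheroid cells, the largest gain of any sequence, followed by miR-26a-5p with 1.58 points. The other sequences among the 5 most abundant of a table were miR-27b-3p, with 5.71% in spheroid and 6.47% in parental cells, and let-7a-5p, with 2.87% and 3.91%. The largest loss was that of miR-21-5p, an abundant miRNA of many cancers, with -2.86 points.

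miR-10b-5p, the guide strand of MIR10B, had 128203 reads in the spheroid table and 45231 reads in the parental table. This was 82551 rpm (82119 to 82985) in spheroid and 83793 rpm (83055 to 84535) in parental cells, or 8.26% and 8.38% of the reads, rank 3 in both tables. The fold was 0.985 (0.975 to 0.996), and the adjusted p was 0.0128 (Kal's Z-test, Benjamini-Hochberg over 436 sequences). A difference of this size turned direction with the scale used. The fold was 1.10 with TMM factors, 1.13 with median-of-ratios factors, 1.04 with totals that leave out the 5 most abundant sequences of each table, and 1.06 with totals that leave out the mir-10a and mir-10b reads. The fold of miR-10a-5p was above 1 under each of these, at 1.66, 1.70, 1.56 and 1.59 in the same order. These scales move the log2 fold of every sequence by 0.16, 0.20, 0.08 and 0.11.

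The 3p strands were a small fraction of these levels. miR-10a-3p had 194 reads in the spheroid table and 43 reads in the parental table, 124.9 rpm (108 to 144) in spheroid and 79.7 rpm (57.7 to 107) in parental cells. Its fold of 1.57 (1.12 to 2.24) lay close to that of its 5p partner, and Kal's Z-test gave an adjusted p of 0.0204. miR-10b-3p had 20 reads in the spheroid table and 10 reads in the parental table, 12.9 rpm (7.87 to 19.9) in spheroid and 18.5 rpm (8.88 to 34.1) in parental cells. Its fold of 0.695 has an interval of 0.311 to 1.66, so no difference was detectable at this depth (Kal's Z-test, adjusted p 0.559).

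**Figure D2:**
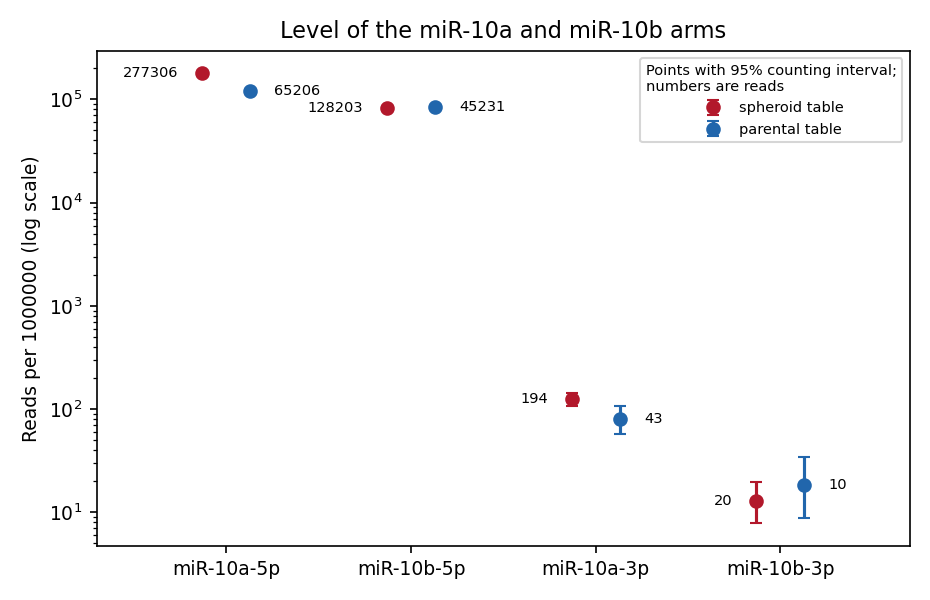
Level of each miR-10a and miR-10b arm in reads per 1000000 of the table total (log axis), with the spheroid table in red and the parental table in blue, bars for the 95% counting interval and the reads printed beside each point. The 5p strands lie between 82551 and 178560 rpm and the 3p strands between 12.9 and 124.9 rpm, with the spheroid level of miR-10a-5p at 178560 rpm above the parental 120797 rpm.

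A sequence was called at an adjusted p under 0.05 in Kal's Z-test and a fold over 2. None of the 4 sequences was called, where 4.82% of the 436 tested sequences were called higher and 8.94% lower in spheroid cells (21 and 39 sequences). This split depends on the scale, since TMM factors gave 28 higher and 30 lower and median-of-ratios factors gave 29 and 28. Without the fold threshold 37.8% of all sequences had an adjusted p under 0.05, so at this depth such a p sets few sequences apart. Among the 89 sequences with at least 1000 reads over both tables, 11 had a larger fold than miR-10a-5p and 77 a smaller one, and their median log2 fold was -0.12. For miR-10b-5p, 38 had a larger fold and 50 a smaller one. Over all 369 sequences with a fold, bounds against the floor of 3 reads included, the median log2 fold was -0.20.

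The abundant sequences whose folds were nearest to that of miR-10a-5p, by the distance of the log2 fold over the 2 tables, were miR-186-5p (1.49), miR-423-3p (1.45), miR-193a-3p (1.41), a miR-28 product with no arm assigned (1.41) and miR-222-3p (log2 fold 0.48). Nearest to miR-10b-5p were miR-17-5p (0.989), miR-100-5p (0.992), miR-128-3p (0.967), miR-23b-3p (0.963) and miR-1249-3p (1.02). Each likeness is of a single fold and describes these tables only.

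**Figure D3:**
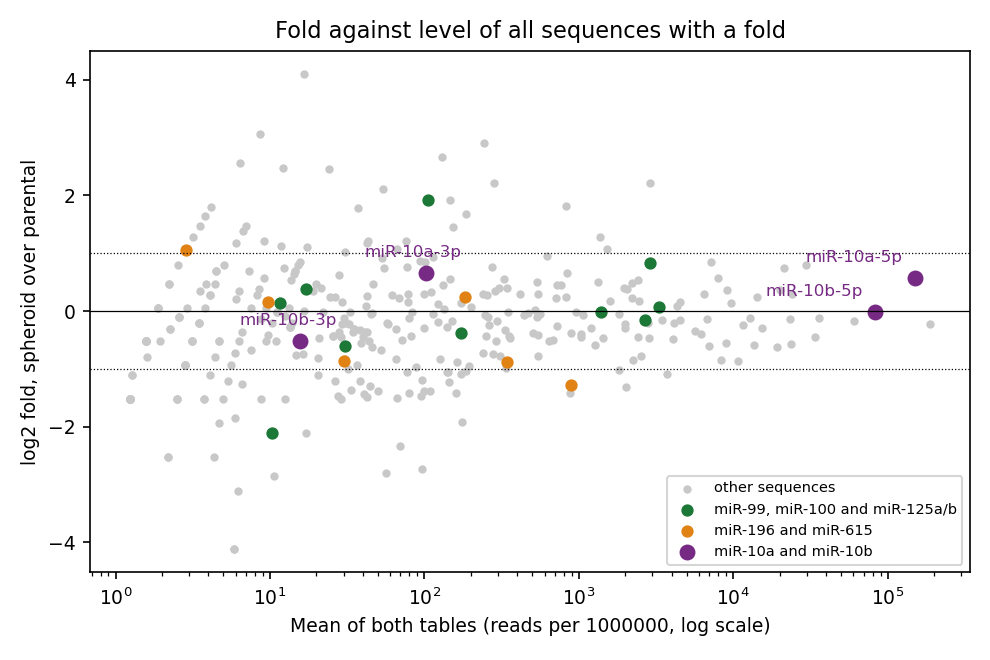
The log2 fold, spheroid over parental, of each of the 369 sequences with a fold, against its mean level in reads per 1000000 (log axis), with dotted lines at a 2-fold difference. miR-10a-5p (0.56) and miR-10b-5p (-0.02) lie at the high end of the level axis and inside the dotted lines.

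The ratio of the 5p strands does not depend on how the tables are scaled. There were 2.16 reads of miR-10a-5p per read of miR-10b-5p (2.15 to 2.18) in spheroid and 1.44 (1.42 to 1.46) in parental cells. As a share of the pair, miR-10a-5p took 68.4% in spheroid and 59.0% in parental cells. The odds ratio was 1.50 (1.48 to 1.52, conditional exact interval of Fisher's exact test). On reads assigned to a single mature sequence it took the same rounded value, and could hardly do otherwise, since these are nearly all the reads. Reads shared with another sequence were 98 of miR-10a-5p in spheroid and 49 in parental cells, and 99 of miR-10b-5p in spheroid and 44 in parental cells, at most 0.0973% of any of them. The counting thus assigned nearly every read to 1 of the strands, which differ by a single base. This does not show that each read was given to the right strand, which was not tested.

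The 3p strands, which differ at more bases, gave a ratio in the same direction with wide error. miR-10a-3p had 9.70 reads per read of miR-10b-3p (6.11 to 16.2) in spheroid and 4.30 (2.13 to 9.60) in parental cells. The odds ratio of 2.26 has an interval of 0.874 to 5.47, and a two-sided Fisher's exact test gave p = 0.0852, so the 3p ratio did not differ beyond counting error.

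Reads equal to the annotated mature sequence were the minority for both 5p strands, the others being variants in length or sequence. For miR-10a-5p, 46066 reads were exact in spheroid cells, 16.6% (16.5 to 16.8), against 9390 reads in parental cells, 14.4% (14.1 to 14.7). The odds ratio was 1.18 (1.16 to 1.21), with an adjusted p of 1.78e-42 in Fisher's exact test with adjustment over the 355 sequences read in both tables, where 12.4% had an adjusted p under 0.05 and 4.51% had one with the larger share in spheroid cells. For miR-10b-5p, 11051 reads were exact in spheroid cells, 8.62% (8.47 to 8.77), against 3812 reads in parental cells, 8.43% (8.17 to 8.69). The odds ratio of 1.02 (0.986 to 1.07) includes no difference (Fisher's exact test, adjusted p 0.776).

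Exact reads were thus more frequent in miR-10a-5p than in miR-10b-5p in each table, with an odds ratio of 2.11 (2.07 to 2.16) in spheroid and 1.83 (1.76 to 1.90) in parental cells. Both strands were low beside other abundant sequences, whose median exact share was 36.7% in spheroid and 43.0% in parental cells over the 89 with at least 1000 reads. Of these, 27 had a lower exact share than miR-10a-5p in spheroid and 25 in parental cells, and 19 and 20 a lower one than miR-10b-5p. The relatives were more often exact. miR-100-5p had 51.7% exact reads in spheroid and 60.9% in parental cells, and miR-125a-5p had 67.3% in spheroid and 62.7% in parental cells. The exact share was smaller in spheroid cells for 52 of the 89 and larger for 35, and it gained more points than that of miR-10a-5p (2.21 points) in 14.

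The low exact share changes the order of the levels. Among exact reads, miR-10a-5p ranked 4 in the spheroid and 8 in the parental table, with 9.06% and 4.98% of such reads, a fold of 1.82 (1.78 to 1.86). miR-10b-5p ranked 13 in the spheroid and 14 in the parental table, with 2.17% and 2.02%, a fold of 1.08 (1.04 to 1.12). Among the remaining, variant reads the fold was 1.39 (1.38 to 1.41) for miR-10a-5p and 0.951 (0.940 to 0.962) for miR-10b-5p. The ratio of miR-10a-5p to miR-10b-5p was higher in the spheroid table in both classes. It was 4.17 against 2.46 in exact reads, with an odds ratio of 1.69 (1.62 to 1.77; two-sided Fisher's exact test, p = 8.7e-122), and 1.97 against 1.35 in variant reads, with an odds ratio of 1.46 (1.44 to 1.49). The split into variant reads was chosen after its values were seen. The 3p strands had too few exact reads to compare, with 10 in spheroid and 2 in parental cells for miR-10a-3p and 3 and 4 for miR-10b-3p.

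**Figure D4:**
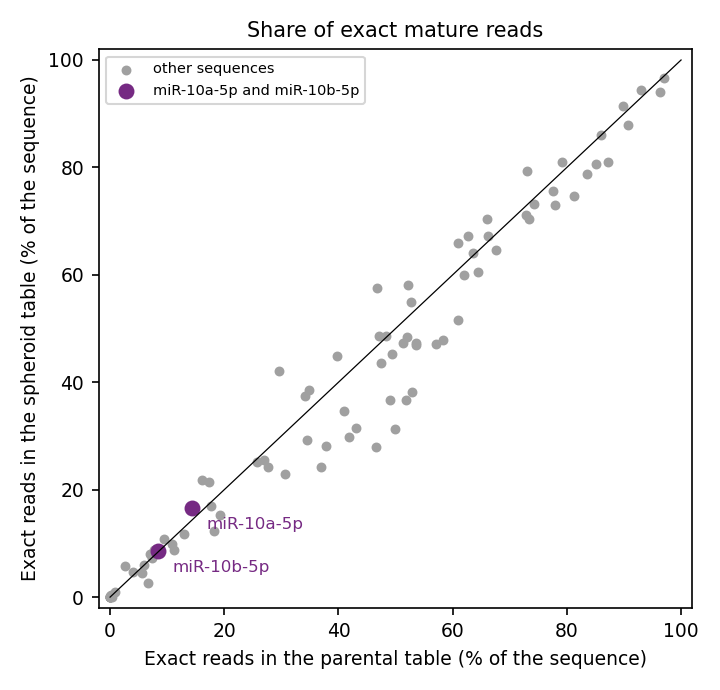
Share of reads equal to the mature sequence, spheroid table (vertical axis, %) against parental table (horizontal axis, %), for the 89 sequences with at least 1000 reads, with the line of equal shares. miR-10a-5p (16.6% and 14.4%) lies a little above the line and miR-10b-5p (8.62% and 8.43%) almost on it, both in the low corner.

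Both hairpins gave nearly all their reads from the 5p arm. The 3p arm was 0.0699% (0.0604 to 0.0805) of the mir-10a reads in spheroid and 0.0659% (0.0477 to 0.0888) in parental cells, which is 1429 and 1516 reads of the 5p strand per read of the 3p strand. In mir-10b it was 0.0156% (0.00953 to 0.0241) in spheroid and 0.0221% (0.0106 to 0.0406) in parental cells, or 6410 and 4523 reads. The odds ratios of the 3p arm were 1.06 (0.759 to 1.51; adjusted p 1) for mir-10a and 0.706 (0.315 to 1.69; adjusted p 0.810) for mir-10b in Fisher's exact test. Arm use thus did not differ beyond counting error in either hairpin, whereas 14.8% of the 122 hairpins with both arms read had an adjusted p under 0.05.

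The arm bias was strong even among abundant hairpins. Of the 60 with at least 1000 reads, the median share of the minor arm was 0.896% in spheroid and 0.933% in parental cells. In spheroid cells 8 of them had a smaller minor share than mir-10a and 4 a smaller one than mir-10b, against 9 and 8 in parental cells.

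The other genes of the miR-10 family were read at a far lower level. The 11 sequences of mir-99a, mir-99b, mir-100, mir-125a, mir-125b-1 and mir-125b-2 summed to 11438 rpm in spheroid and 9880 rpm in parental cells. Of the 10 with a fold, 1 rose and 1 fell, where 4.82% of all sequences tested rose and 8.94% fell, and the median log2 fold was 0.03, beside -0.20 over all sequences. miR-125b-2-3p, from the minor arm of its hairpin, had 260 reads in spheroid and 24 reads in parental cells, a fold of 3.77 (2.48 to 5.98). miR-100-3p had 6 reads in spheroid and 9 reads in parental cells, a fold of 0.232 (0.0679 to 0.729). By seed, the miR-99 and miR-100 strands together had 7457 reads in spheroid and 2512 in parental cells, and the miR-125 strands had 9747 and 2656. The most abundant member in spheroid cells was miR-125a-5p, with 5791 reads in spheroid and 1128 reads in parental cells, a fold of 1.78 that was not called. The most abundant in parental cells was miR-99b-5p, with 5258 reads in spheroid and 1744 reads in parental cells and a fold of 1.05.

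The other microRNA genes of the HOX clusters, mir-196a-1, mir-196a-2, mir-196b and mir-615, gave 6 sequences. None rose and 1 fell, beside 4.82% and 8.94% over all sequences, and their median log2 fold was -0.36, beside -0.20. miR-196b-5p, from the HOXA cluster, had 803 reads in spheroid and 678 reads in parental cells, a fold of 0.412 (0.371 to 0.457). miR-196a-5p had a fold of 0.542 (0.459 to 0.640) and was not called. miR-615-3p had a fold of 1.18 (0.934 to 1.51), an interval that includes no difference.

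miR-10b is one of several microRNAs that earlier work ties to spread of breast cancer cells. Of 22 other stem-loops with such a link, 22 sequences were read and 20 had a fold. Of these 2 rose and 1 fell, beside 4.82% and 8.94% over all sequences, and the median log2 fold was -0.21, near the -0.20 of all sequences. miR-126-5p, a product of an endothelial gene that restrains metastasis, had 361 reads in spheroid and 33 reads in parental cells (log2 fold 1.93), and miR-126-3p had 49 reads and 1 read (log2 fold 4.09, with a fold interval of 2.92 to 686). miR-31-3p had 171 reads in spheroid and 127 reads in parental cells, a fold of 0.468. The most abundant of this list, miR-21-5p, had a fold of 0.858 and was not called.

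Across all 12 alternative settings the fold of miR-10a-5p was between 1.48 and 1.82 and that of miR-10b-5p between 0.985 and 1.13. Changes of test or read minimum leave a fold as it is, and changes of scale move both folds alike. Of the settings, only exact reads could alter their order, and with these miR-10a-5p was above miR-10b-5p (1.82 against 1.08). Reads assigned to a single mature sequence were at least 99.9% of the reads of either strand in either table. Their folds (1.48 against 0.985) were thus bound to stay as they were. Neither strand was called in any setting. A biological coefficient of variation of 0.2 between cultures was then assumed, with each table treated as a single culture. Under this assumption edgeR's exact test gave miR-10a-5p an unadjusted p of 0.171 and an adjusted p of 0.659. A difference of this size would not pass if cultures varied by that much and each table held a single culture. If a table pools several cultures, these p-values do not apply, and that case was not tested.

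**Figure D5:**
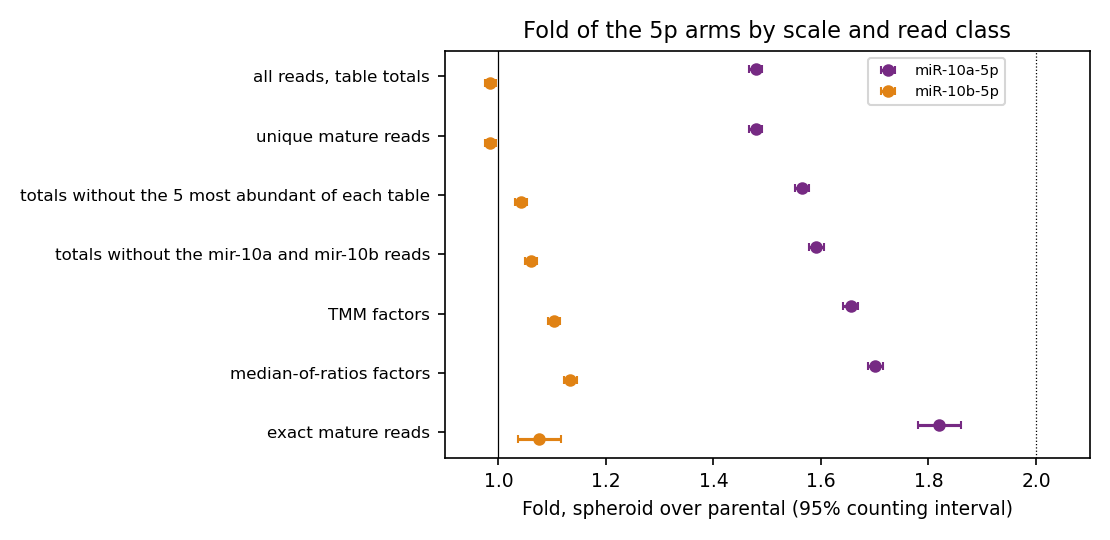
Fold of miR-10a-5p (purple) and miR-10b-5p (orange), spheroid over parental, under different totals, scale factors and read classes, with 95% counting intervals, a solid line at a fold of 1 and a dotted line at 2. The folds of miR-10a-5p lie between 1.48 and 1.82 and those of miR-10b-5p between 0.985 and 1.13, on either side of 1.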

How the data were processed

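Small RNA of spheroid and parental MDA-MB-231 cells (3 samples each) was sequenced on an Illumina HiSeq after TruSeq library preparation. In CLC Genomics Workbench 7.0, the authors trimmed and filtered the reads, kept lengths of 17 to 27 nucleotides, and assigned reads to miRBase 19 and to Ensembl GRCh37 release 57. The deposited values are raw counts of reads per mature sequence, 1 table per condition, with further columns for exact and unique mature reads. The labels name the same table for all 3 samples of a condition, and the study's sample sheet lists it for the first sample only, so a table may be 1 library. The totals were 1553014 reads for spheroid and 539798 reads for parental cells.

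The members, gene lists and tests were chosen with earlier results of these data known. The tables were joined by sequence, and reads were scaled to 1000000 of the table total (rpm). As in the study's methods, a sequence was called in Kal's Z-test at a Benjamini-Hochberg adjusted p under 0.05 over 436 sequences and a fold over 2. A table with 0 reads of a sequence was set to a floor of 3 reads for its fold, a bound, provided the other table had more than 3. Exact and 3p shares and strand ratios were compared with two-sided Fisher's exact tests. Of 437 sequences, 388 were named by a RefSeq mature sequence, 26 by their place in a RefSeq hairpin and 23 by neither. Loci come from exact matches to GRCh37 with GENCODE release 44 mapped to it. Named were all 4 members, called and most abundant list members, the 5 sequences of at least 1000 reads nearest in fold to each 5p strand, and the 5 most abundant of each table. Python 3.11.15, scipy 1.17.1, statsmodels 0.14.6, pandas 2.3.3, RNAfold 2.7.2, and, for alternatives, R 4.3.3 with edgeR 4.0.16 and DESeq2 1.42.0 were used. The calls, fold intervals and odds ratio intervals were tested on simulated reads with counting error alone, without variation between cultures. Alternatives were TMM and median-of-ratios factors, reduced totals, exact or unique reads, read minimums of 10 and 50, Fisher's exact test, unadjusted p, and edgeR's exact test with a biological coefficient of variation set to 0.2 or 0.4.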

Additional observations from a re-analysis of the deposited data

How the results depend on the processing

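The fold of miR-10b-5p, 0.985 with table totals, turned direction at 1.10 with TMM factors, 1.13 with median-of-ratios factors, 1.04 without the 5 most abundant sequences, 1.06 without the mir-10a and mir-10b reads, and 1.08 with exact reads. The number of sequences called lower, 39 of 436 tested, was 24 of 311 tested with exact reads. With the biological coefficient of variation set to 0.2, edgeR's exact test called 13 higher and 8 lower, and with 0.4 it called 0 higher and 0 lower (11 and 7 at an unadjusted p under 0.05 and a fold over 2). Fewer sequences pass there because the assumed variation is added to the counting error, with each table treated as a single culture. Among the 12 settings, the fold of miR-10b-5p kept its direction in 7 and turned it in 5. The fold of miR-10a-5p kept its direction in 12, though changes of test or read minimum cannot move a fold. Reads assigned to a single mature sequence can hardly move it either. miR-10b-3p, with 30 reads in all, has no value at a minimum of 50 reads. No paired analysis was possible because the tables hold no columns per sample, and leaving out a replicate was not possible for the same reason. Depth limits the 3p strands, with 20 and 10 reads of miR-10b-3p in spheroid and parental cells.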
